A study of Rattus norvegicus with 40 samples.

Results

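Laminins are the cross-shaped glycoproteins of the basement membrane, and their chains were followed here as messenger RNA in rat liver during treatment with diethylnitrosamine (DEN). DEN is a nitrosamine that hepatocytes convert to a DNA-alkylating agent, and repeated injections give chronic liver damage, fibrosis and hepatocellular carcinoma. The members are the rows of the count files that carry the symbols of 8 laminin chain genes, Lama2, Lama3, Lama4, Lama5, Lamb1, Lamb2, Lamb3 and Lamc1. Of these, 5 were analysed (Lama4, Lama5, Lamb2, Lamb3 and Lamc1), out of 17337 genes in the files. Lama2, Lama3 and Lamb1 were not analysed here. The genes were chosen by symbol, and Lama5 was selected on its measured level in the 8 groups, much higher in DEN-treated liver and less so after DEN had stopped, so all of its differences between groups are given as a description, without a test.

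All animals were male Fischer 344 rats, 7 weeks old at the start. DEN-treated rats received weekly intraperitoneal injections of 50 mg/kg and were sampled at 8 weeks, at 14 weeks, or at 20 weeks, when they had gone 6 weeks without DEN. Non-tumor (NT) liver was taken at each of the 3 times and 2 tumor nodules per rat were taken at 14 and 20 weeks, while untreated rats of the same age gave the no DEN groups. Each of the 8 groups held 4 rats, so that 24 rats gave 40 libraries. The label of a rat begins with F or H. There were 4 F rats, F09 and F10 at 8 weeks, F06 at 14 weeks and F03 at 20 weeks, all treated, and every untreated rat carried H, so the letter is partly confounded with the treatment. The labels do not say what the letter stands for. Libraries held 20528515 to 160622633 counted read pairs with a median of 30477421, and the largest, NT liver of rat H26 at 20 weeks, was followed by one of 39355849. The 2 nodule libraries of rat F06 stood apart, with 34.5% and 28.2% of their read pairs not wholly within the exons of a gene, against 21.5% to 26.3% in all others, and nodule 1 of F06 was the smallest library. Levels are CPM, read counts scaled to library size, after TMM, a correction for library composition, and the 2 nodules of a rat were summed to 1 value. CPM is not divided by gene length, so levels are compared between groups for a gene and not between genes.

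A laminin molecule is a trimer of an alpha, a beta and a gamma chain that assembles inside the cell. Once secreted, laminins form a network at the cell surface that is held by integrins and dystroglycan and tied to type IV collagen through nidogen and perlecan. Normal liver sinusoids lack a continuous basement membrane, while bile ducts and larger vessels have one, and a basement membrane that forms along the sinusoids is a known feature of fibrotic liver. Lama5 encodes an alpha chain found widely under epithelia and in vessel walls, and Lama4 an alpha chain of endothelial and mesenchymal basement membranes. Lamb2 and Lamb3 encode beta chains, the latter known from epithelial anchoring in skin, and Lamc1 encodes the most widely used gamma chain.

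The 300 bases around the gene start, 250 before and 50 after, are shown for 3 chains, Lama5 as the chain selected, Lama4 as the chain called in most comparisons with untreated liver, and Lamc1 as one called in none of them. They come from RefSeq on the build GRCr8, a later build than the rn6 used for the counts, and 4 of the 5 chains analysed had an entry, all but Lamb2. The Lama5 sequence lies at chr3:187695925-187696224 on the minus strand, that of Lama4 at chr20:43946648-43946947 on the plus strand and that of Lamc1 at chr13:68051937-68052236 on the minus strand. Capitals mark the GC box, GGGCGG on either strand, a motif bound by Sp-family factors.
Lama5: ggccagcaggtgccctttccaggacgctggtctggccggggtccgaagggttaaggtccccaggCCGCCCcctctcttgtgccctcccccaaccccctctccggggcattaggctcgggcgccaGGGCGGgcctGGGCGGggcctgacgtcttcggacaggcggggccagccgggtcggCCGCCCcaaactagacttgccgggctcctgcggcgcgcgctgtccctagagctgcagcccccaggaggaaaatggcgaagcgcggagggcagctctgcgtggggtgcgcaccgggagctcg
Lama4: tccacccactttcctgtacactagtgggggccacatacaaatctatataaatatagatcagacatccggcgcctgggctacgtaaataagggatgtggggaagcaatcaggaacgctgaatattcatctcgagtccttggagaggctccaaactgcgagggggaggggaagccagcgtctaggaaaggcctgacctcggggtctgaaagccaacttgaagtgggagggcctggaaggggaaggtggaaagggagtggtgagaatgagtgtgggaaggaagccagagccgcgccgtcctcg
Lamc1: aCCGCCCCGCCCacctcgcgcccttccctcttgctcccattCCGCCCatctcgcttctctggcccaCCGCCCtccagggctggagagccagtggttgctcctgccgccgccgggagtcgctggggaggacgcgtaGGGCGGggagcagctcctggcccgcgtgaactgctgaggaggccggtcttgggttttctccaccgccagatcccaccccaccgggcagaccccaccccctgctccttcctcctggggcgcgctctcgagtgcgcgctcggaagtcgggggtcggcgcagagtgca
The Lama5 window held 4 GC boxes and the Lamc1 window 5, counting overlapping matches, while the Lama4 window held 0, and 33.1% of the 33469 promoters in the table held at least 1. GC content was 73.0% for Lama5, above that of 95.1% of all promoters, 71.7% for Lamc1 and 55.0% for Lama4, beside a median of 51.7%. The letters TATAAA, the core of a TATA box, stood in the Lama4 window once and were in neither of the others, against 14.2% of all promoters. Lamb3, on chromosome 13, had 59.3% GC, 0 GC boxes and 1 match to the cyclic AMP response element TGACGTCA, which 1.83% of promoters held. These are matches of letters in a window and were not measured as binding.

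Lama5 was low in untreated liver and 2.97- to 19.0-fold higher in the means of the treated groups. In no DEN liver it stood at 1.64, 1.84, 1.89 and 2.09 CPM at 8 weeks, at 1.2, 1.45, 1.78 and 1.8 CPM at 14 weeks, and at 1.71, 1.76, 1.91 and 2.37 CPM at 20 weeks. In NT liver at 8 weeks it was 26.3 and 28.3 CPM in the rats F10 and F09 and 39.5 and 47.8 CPM in H17 and H18. All treated rats lay far above all untreated rats, and both F rats lay below both H rats. At 14 weeks NT liver held 18.7 CPM in F06 and 21.3, 22.3 and 22.6 CPM in the H rats. At 20 weeks, 6 weeks after the last injection, NT liver held 4.27 CPM in F03 and 5.95, 6.23 and 6.57 CPM in the H rats, below every rat at 14 weeks but still above every untreated rat. The nodules held 20.2, 21.3, 23.5 and 30.8 CPM at 14 weeks, the highest in F06, and 8.39, 8.65, 9.93 and 10.9 CPM at 20 weeks.

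Put in order, the mean level of Lama5 was 35.5 ± 10.04 CPM in NT liver at 8 weeks, 24.0 ± 4.75 in nodules at 14 weeks, 21.2 ± 1.8 in NT liver at 14 weeks, 9.48 ± 1.18 in nodules at 20 weeks and 5.76 ± 1.02 in NT liver at 20 weeks, as mean ± SD of 4 rats. The no DEN means were 1.94 ± 0.3, 1.87 ± 0.185 and 1.56 ± 0.286 CPM at 20, 8 and 14 weeks (SD, n = 4 each). Neighbours in this order overlapped among the first 3 groups and among the 3 untreated groups. The rats of the other neighbouring groups did not overlap. The ratio of the means to no DEN liver of the same age was 19.0 at 8 weeks, 13.6 at 14 weeks and 2.97 at 20 weeks in NT liver, and 15.4 and 4.89 in nodules at 14 and 20 weeks. On the log2 scale the fitted differences were 4.25 ± 0.22, 3.78 ± 0.13 and 1.58 ± 0.18 in NT liver and 3.92 ± 0.19 and 2.26 ± 0.16 in nodules (SE). The difference was lower by 2.20 ± 0.22 in NT liver and by 1.67 ± 0.25 in nodules at 20 weeks than at 14 weeks. Without the F rats the difference at 8 weeks was 4.57. In bulk RNA, more cells that express a gene and more RNA per cell cannot be told apart, and this holds for every chain below.

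**Figure D1:**
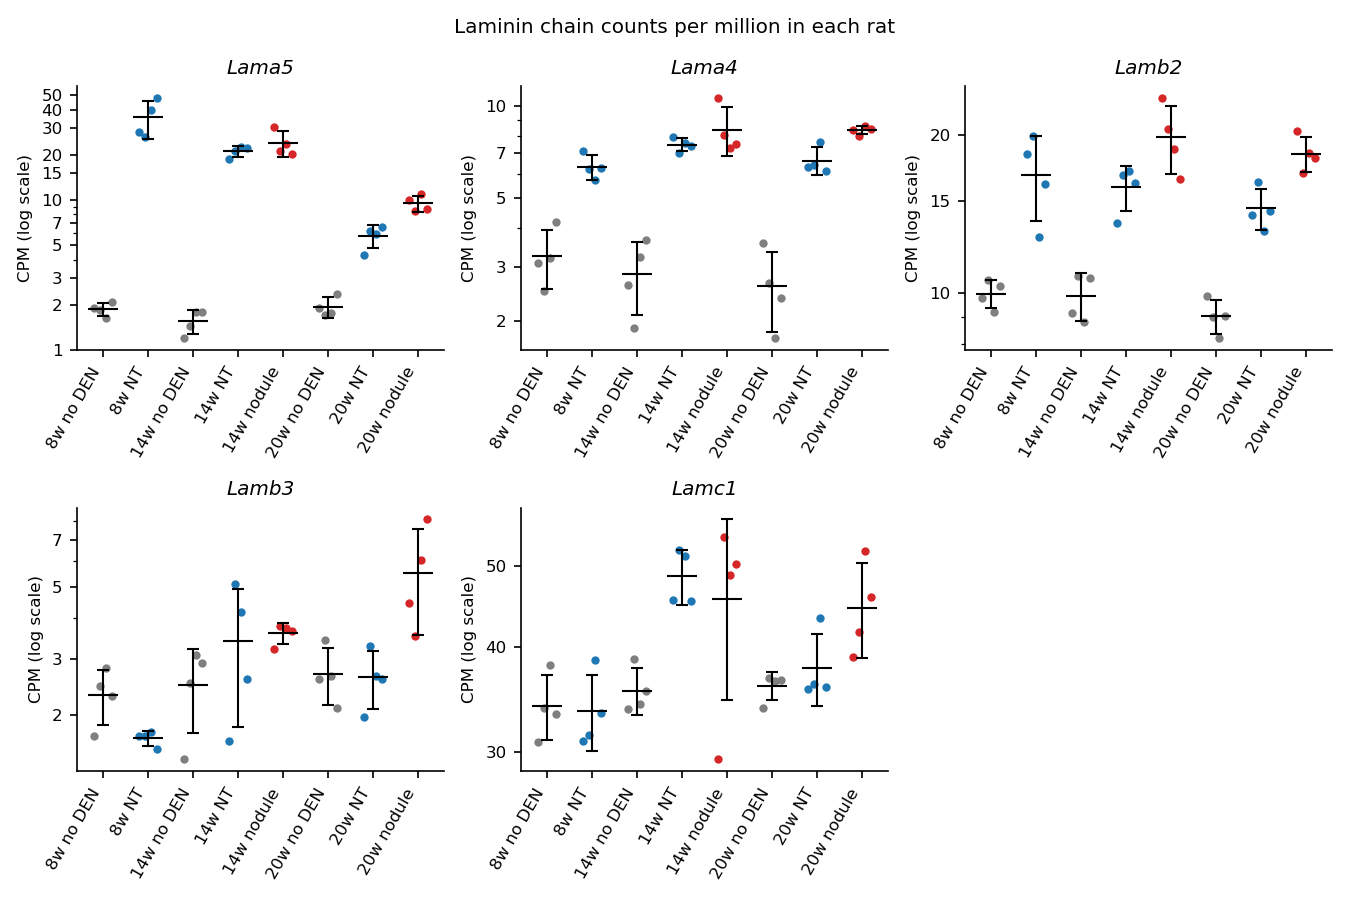
CPM on a log axis of the 5 chains analysed in each of the 8 groups by week and tissue. Each point is a rat (grey no DEN, blue NT liver, red the summed nodules), the horizontal bar is the mean and the error bar the SD of 4 rats. Lama5 spans 1.2 to 47.8 CPM with treated and untreated rats apart at each time, whereas Lamc1 stays between 29.4 and 54.2 CPM.

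Lama4, the endothelial and mesenchymal alpha chain, was also higher in treated liver, by 1.95-fold at 8 weeks, 2.62-fold at 14 weeks and 2.56-fold at 20 weeks in the means of NT liver. Untreated rats held 2.5, 3.09, 3.2 and 4.18 CPM at 8 weeks, 1.9, 2.62, 3.23 and 3.66 CPM at 14 weeks and 1.76, 2.37, 2.65 and 3.58 CPM at 20 weeks. NT liver held 5.73, 6.23, 6.26 and 7.13 CPM at 8 weeks, 7.01, 7.42, 7.57 and 7.9 CPM at 14 weeks and 6.13, 6.31, 6.43 and 7.65 CPM at 20 weeks. Treated and untreated rats did not overlap at any of the 3 times. The share of all genes whose rats separate in this way was not counted, here or for any other chain. At 14 weeks 6600 of the 11016 genes tested in NT liver had an unadjusted p under 0.05 in the edgeR test. In NT liver the log2 difference was 1.40 ± 0.17 at 14 weeks (adjusted p = 7.97e-05) and 1.37 ± 0.19 at 20 weeks (adjusted p = 0.000952), and both passed the threshold used for NT liver, a fold change of at least 2 with an adjusted p of at most 0.01. At 8 weeks it was 0.97 ± 0.16 (adjusted p = 0.00125), just under that fold. Leaving out rat H08 or rat H17 took it over, to 1.11 and 1.01. The change of the difference from 14 to 20 weeks was -0.02 ± 0.26 (adjusted p = 0.979).

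In the nodules Lama4 rose at both times against no DEN liver, by the threshold for nodules of a log2 difference of at least 0.5 with an adjusted p of at most 0.05. The rats held 7.29, 7.54, 8.06 and 10.6 CPM at 14 weeks and 7.99, 8.33, 8.4 and 8.58 CPM at 20 weeks. The log2 differences were 1.52 ± 0.22 (adjusted p = 0.000471) and 1.66 ± 0.19 (adjusted p = 0.000122). The highest value at 14 weeks was that of F06.

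Lamb2, the beta chain of vessel walls, kidney glomeruli and neuromuscular junctions, stood higher in NT liver at every time by less than 2-fold, and in nodules by 2.01- and 2.04-fold at 14 and 20 weeks. Untreated rats held 9.2, 9.8, 10.3 and 10.6 CPM at 8 weeks, 8.81, 9.15, 10.7 and 10.8 CPM at 14 weeks and 8.22, 9.0, 9.04 and 9.89 CPM at 20 weeks. NT liver held 12.8, 16.1, 18.4 and 19.9 CPM at 8 weeks, 13.6, 16.2, 16.8 and 17.1 CPM at 14 weeks and 13.1, 14.1, 14.3 and 16.3 CPM at 20 weeks. Every treated rat was above every untreated rat of its age, a pattern whose share over all genes was not counted. The log2 differences were 0.76 ± 0.13, 0.71 ± 0.10 and 0.68 ± 0.10 at 8, 14 and 20 weeks, with adjusted p of 0.00141, 0.000231 and 0.00125, so the p passed and the fold did not. At 8 weeks both F rats lay above both H rats. Without the F rats the difference was 0.56 (adjusted p = 0.011), just over the limit for p. Nodules held 16.5, 18.8, 20.5 and 23.5 CPM at 14 weeks and 16.9, 18.1, 18.5 and 20.3 CPM at 20 weeks, and passed the nodule threshold with log2 differences of 0.98 ± 0.13 (adjusted p = 0.000322) and 1.00 ± 0.10 (adjusted p = 6.29e-05).

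Lamb3, the beta chain of epithelial anchoring, did not pass the threshold in NT liver at any time and rose in the nodules at 20 weeks. Untreated rats held 1.72, 2.3, 2.46 and 2.8 CPM at 8 weeks, 1.46, 2.52, 2.9 and 3.08 CPM at 14 weeks and 2.11, 2.6, 2.64 and 3.42 CPM at 20 weeks. NT liver held 1.57, 1.72, 1.73 and 1.78 CPM at 8 weeks and 1.97, 2.6, 2.65 and 3.28 CPM at 20 weeks, while at 14 weeks it ran from 1.66 CPM in F06 over 2.59 and 4.19 to 5.11 CPM in H21. These ranges overlapped those of the untreated rats at all 3 times. The log2 differences in NT liver were -0.44 ± 0.18 (adjusted p = 0.0834), 0.47 ± 0.36 (adjusted p = 0.294) and -0.02 ± 0.21 (adjusted p = 0.957). The nodules held 3.2, 3.65, 3.74 and 3.79 CPM at 14 weeks and 3.52, 4.47, 6.06 and 8.09 CPM at 20 weeks, all above the untreated rats of the same age. The log2 difference was 0.50 ± 0.22 (adjusted p = 0.0857) at 14 weeks and 1.02 ± 0.27 (adjusted p = 0.00929) at 20 weeks. With nodule 1 of each rat alone the latter was 0.59 (adjusted p = 0.0897).

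Lamc1, the common gamma chain, had a level in NT liver near that of untreated liver at 8 and 20 weeks and above it at 14 weeks. Untreated rats held 30.8, 33.3, 33.9 and 38.1 CPM at 8 weeks, 33.8, 34.2, 35.5 and 38.7 CPM at 14 weeks and 33.9, 36.5, 36.6 and 36.8 CPM at 20 weeks. NT liver held 30.9, 31.4, 33.4 and 38.6 CPM at 8 weeks, 45.4, 45.5, 51.4 and 52.2 CPM at 14 weeks and 35.7, 35.9, 36.2 and 43.3 CPM at 20 weeks. Only at 14 weeks did the treated rats all lie above the untreated ones. The log2 differences were -0.01 ± 0.10 (adjusted p = 0.935), 0.47 ± 0.08 (adjusted p = 0.000464) and 0.08 ± 0.08 (adjusted p = 0.5). None reached a fold of 2. The nodules held 29.4, 48.8, 50.2 and 54.2 CPM at 14 weeks, the lowest in F06, and 38.9, 41.7, 45.9 and 52.1 CPM at 20 weeks, with log2 differences of 0.33 ± 0.17 (adjusted p = 0.132) and 0.28 ± 0.10 (adjusted p = 0.0318), the latter under the fold of the nodule threshold. At 20 weeks it was 0.059 with nodule 1 of each rat alone (adjusted p = 0.765) and 0.44 with nodule 2 alone (adjusted p = 0.00597).

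**Figure D2:**
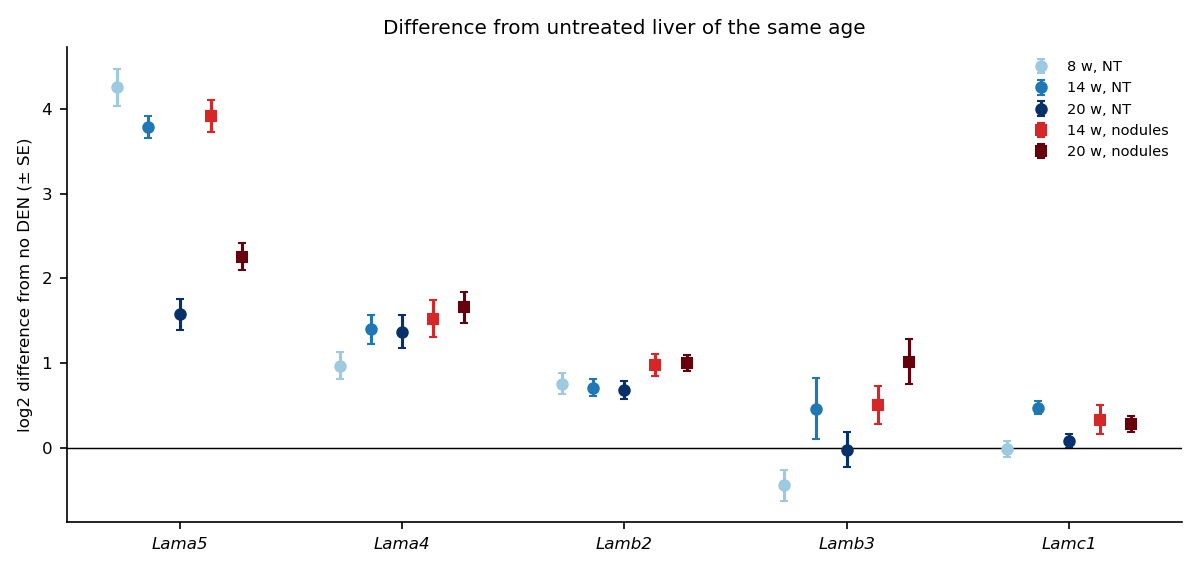
Log2 difference from no DEN liver of the same age, with its SE, for NT liver (circles) and nodules (squares) at 8, 14 and 20 weeks. The Lama5 points run from 4.25 at 8 weeks to 1.58 at 20 weeks in NT liver, while the Lama4 points lie between 0.97 and 1.66 and those of Lamb2 between 0.68 and 1.00.

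Counted over the 4 tested chains other than Lama5, 0 passed the threshold in NT liver at 8 weeks, 1 (Lama4) at 14 weeks and 1 (Lama4) at 20 weeks, where 7.29%, 13.1% and 4.89% of all genes tested were higher by the same rule. The last share moves with single rats, untreated and treated. With 1 rat left out, the genes called in either direction at 20 weeks ran from 250 without the untreated rat H16 to 649 without the treated rat H25. With all rats they were 565, and Lama4 was called each time. The count of 0 at 8 weeks was made with edgeR. There 3 of the 4 had an unadjusted p under 0.05, and DESeq2 also called 0. By the looser threshold used for nodules, Lama4 and Lamb2 passed in NT liver at each time, 2 of 4, beside 16.5%, 22.8% and 14.3% of all genes higher. In the nodules 2 of 4 rose at 14 weeks (Lama4 and Lamb2) and 3 of 4 at 20 weeks (with Lamb3), beside 23.9% and 23.6% of all genes higher. Without F06 the count at 14 weeks was 4 of 4, with log2 differences of 0.58 for Lamb3 and 0.52 for Lamc1, just over the limit of 0.5. Over all genes the calls in either direction then also rose, from 4425 to 4686. The nodules of F06 are the ones with the highest share of pairs not wholly within exons, and the part of this in the count was not tested.

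The difference between NT and no DEN liver changed from 8 to 14 weeks for Lamc1, by 0.48 ± 0.12 (adjusted p = 0.0241), the only 1 of the 4 tested chains to pass an adjusted p of at most 0.05, beside 8.96% of all genes. This call was lost without the rat H11, H21, H22, H07 or F09, with adjusted p between 0.0521 and 0.0766, without the F rats (adjusted p = 0.0595) and with all 8 groups in 1 fit (adjusted p = 0.167). The genes called ran from 533 without H21 to 1870 without H17, in place of 1005. From 14 to 20 weeks 0 of the 4 passed in NT liver, where edgeR called 0.738% of all genes, 1 of the 4 had an unadjusted p under 0.05 and DESeq2 called 1. That gene was Lamc1, with a change of -0.39 ± 0.11 (adjusted p = 0.0968), and without rat H26, whose library is by far the largest, the change was -0.46 (adjusted p = 0.022). For nodules 0 of the 4 passed between 14 and 20 weeks with either tool, 0 had an unadjusted p under 0.05, and 0.0862% of all genes were called.

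Each rat's nodules were compared next with its own NT liver. The levels that chose Lama5 include these groups, so its values are a description here too. At 14 weeks 0 of the 4 tested chains passed, and 12 of 32 single-nodule values of these chains lay below NT liver. The summed nodules lay above NT liver in 4 of 4 rats for Lamb2 alone, as they did for 21.1% of 10098 genes with a mean of at least 1 CPM. The ratio of nodule to NT liver for Lama5 was 0.907, 1.0, 1.04 and 1.65 in H23, H21, H22 and F06, and the log2 difference was 0.16 ± 0.14 (SE). F06 gave the highest ratio of its week for Lama4, Lama5, Lamb2 and Lamb3, from 1.34 to 1.93, and the lowest for Lamc1, 0.645. Its nodule libraries held 34.5% and 28.2% of pairs not wholly within exons, and the part of this in the ratios was not tested. Without F06 the Lama5 difference was -0.03. At this time 0 of the 4 tested chains and 0.0% of all genes were called by edgeR, with or without the rat as a block, while 1348 genes had an unadjusted p under 0.05, among them 1 of the 4 chains, Lamb2, and DESeq2 called 24 genes and 0 chains.

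At 20 weeks the summed nodules lay above the NT liver of the same rat in 4 of 4 rats for each of the 4 tested chains and for Lama5, as they did for 22.4% of the 10098 genes with a mean of at least 1 CPM. Among the single nodules 3 of 32 values of the tested chains lay below NT liver, Lamc1 in nodule 1 of F03 and Lamb2 and Lamb3 in nodule 2 of H25. For Lama5 the ratio was 1.32 in H28, 1.35 in H25, 1.84 in H26 and 2.32 in F03, and the nodule values lay above all NT values. For Lamb3 it was 1.07, 2.27, 2.29 and 3.1 in H25, F03, H26 and H28. The ratio ran from 1.12 to 1.37 for Lama4, from 1.04 to 1.44 for Lamb2 and from 1.09 to 1.28 for Lamc1. Without the rat in the fit the log2 differences were 0.69 ± 0.15 for Lama5 (SE, not tested) and 1.05 ± 0.26 for Lamb3 (adjusted p = 0.101), and edgeR called 0 of the 4 tested chains and 0.0% of all genes, although 3 of the 4 and 2767 genes had an unadjusted p under 0.05 and DESeq2 called 1 chain and 904 genes. With the rat as a block, Lamb3 passed at 1.01 ± 0.22 (adjusted p = 0.0113), 1 of 4 beside 14.7% of all genes, and the difference of Lama5 was 0.70 ± 0.13 (SE, not tested). In the blocked fit Lama4, Lamb2 and Lamc1 had adjusted p of 0.0331, 0.0202 and 0.0438 with log2 differences of 0.30, 0.33 and 0.21, under the fold threshold. In the same fit 5 of 8 hepatocyte markers were called lower, and 4 of 10 cholangiocyte and progenitor, 3 of 13 stellate cell and myofibroblast and 0 of 12 endothelial markers higher, beside the same 14.7% in either direction. Their part in the differences of the chains was not tested.

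The 2 nodules of a rat differed by 1.16- to 1.43-fold for Lama5 at 14 weeks and by 1.19- to 1.63-fold at 20 weeks. For Lamb3 the widest gap was in H28 at 20 weeks, with 3.0 CPM in nodule 1 and 11.9 CPM in nodule 2, a 3.96-fold difference, while the widest gap at 14 weeks was 1.32-fold. Lama4 nodules of a rat lay within 1.36-fold, those of Lamb2 within 1.52-fold and those of Lamc1 within 1.66-fold at both times. For Lama5 the gap between nodules in F03, 7.22 and 11.8 CPM, was wider than the spread of the rat values at 20 weeks.

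**Figure D3:**
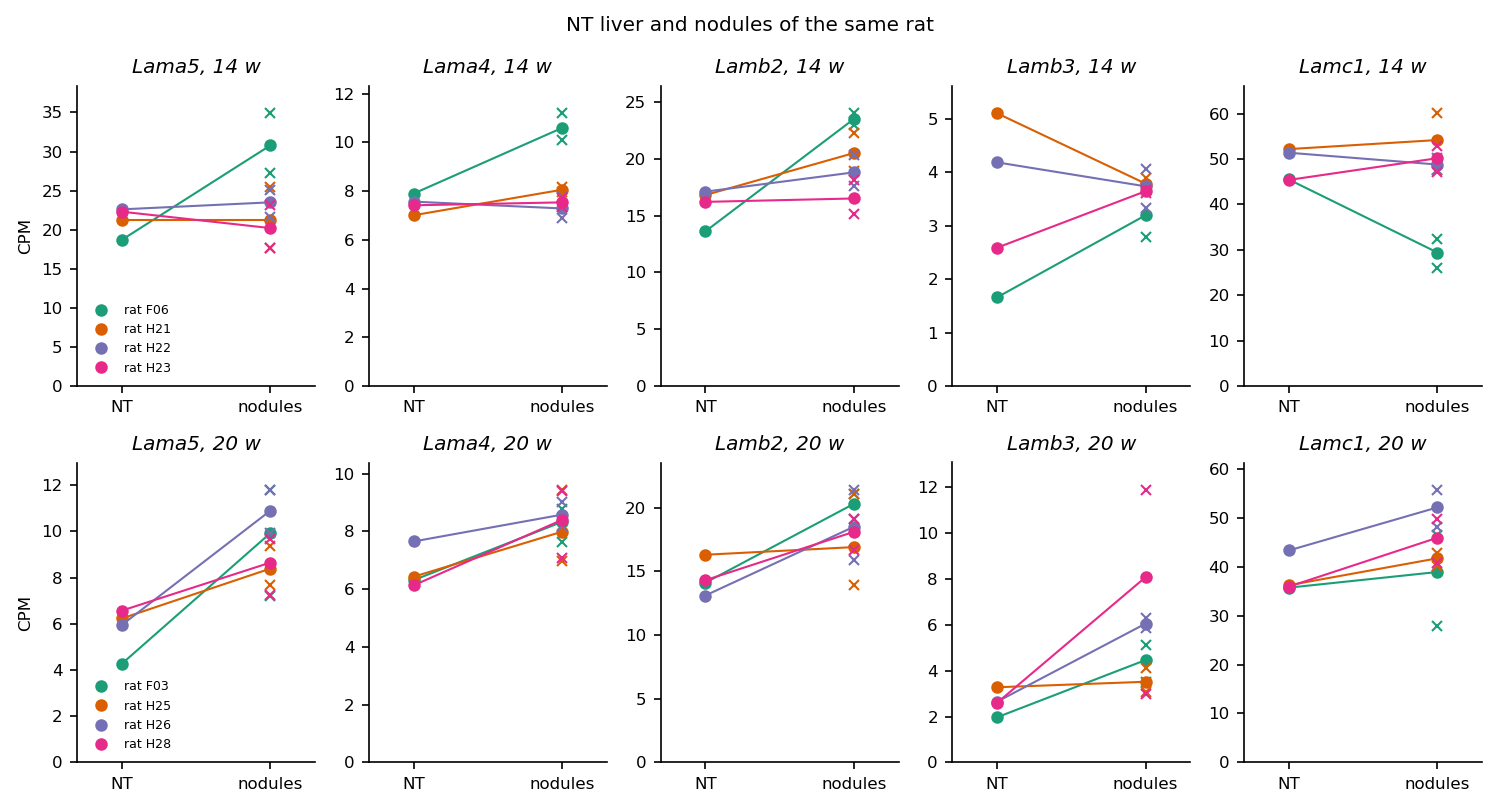
CPM of each of the 5 chains in NT liver and nodules, rat by rat, at 14 weeks (top) and 20 weeks (bottom), on axes that start at 0. Circles joined by a line are the NT value and the summed nodules of a rat, and crosses are its 2 single nodules. At 20 weeks every line rises, and the H28 nodules for Lamb3 lie at 3.0 and 11.9 CPM.

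Lama1 and Lamc3, laminin chains outside the members, were at or near the floor. Lamc3 had group means of at most 0.507 CPM, and Lama1 had 0 to 6 counts per rat and tissue, too few to follow. Over the step from 8 to 14 weeks the NT difference of Lamb3 changed by 0.90 ± 0.42 (adjusted p = 0.178).

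The likeness of other genes was taken as Pearson's r of the 8 group means of log2 CPM over 10098 genes with a mean of at least 1 CPM, as a description without a test. The 8 points share their libraries and the order of treatments. The genes most like Lama5 were Ankrd13d (0.996), Thyn1 (0.991), Cdkn3 (0.990), Pcolce (0.989), Hdgfrp3 (0.988), Atp6v1d (0.987), Col5a2 (0.986) and Arhgef25 (0.986). Pcolce, at rank 4, encodes an enhancer of procollagen processing and Col5a2, at rank 7, a chain of fibrillar type V collagen. From 14 to 20 weeks NT liver went from 15.0 to 10.1 CPM for Pcolce and from 22.5 to 14.6 CPM for Col5a2, beside 5.95 and 11.1 CPM in no DEN liver at 14 weeks. The 3 most alike genes went from 2.03 to 0.751 CPM (Ankrd13d), from 17.9 to 13.3 CPM (Thyn1) and from 2.41 to 0.868 CPM (Cdkn3). Whether the 8 genes share a function was not tested. The deviations of single rats from their group means correlated with those of Lama5 at -0.21 to 0.48 over these 8 genes. For Pcolce this r was -0.00 and for Col5a2 0.26. The 2 genes most like Lama4 were Arhgef3 (0.999) and Tie1 (0.997), those most like Lamb2 were Adam28 (0.997) and Cdc42ep2 (0.995), those most like Lamb3 were Prdx6 (0.990) and Myo5b (0.984), and those most like Lamc1 were Gnb1 (0.984) and Vps13a (0.983). Among the chains themselves r of the group means was 0.98 for Lama4 with Lamb2, 0.90 for Lama5 with Lamb2, 0.87 for Lama5 with Lama4, 0.79 for Lamb3 with Lamc1 and 0.69 for Lama4 with Lamc1, while the other 5 pairs lay between 0.13 for Lama5 with Lamb3 and 0.64 for Lamb2 with Lamc1. The deviations of single rats from their group means correlated at 0.23, 0.08, 0.26, 0.39 and -0.34 for these first 5 pairs, and at -0.44 to 0.23 for the others.

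Partners of laminin in the basement membrane were followed with a list of 19 genes, of which 14 had a row. In NT liver at 8, 14 and 20 weeks 3 of 10, 5 of 10 and 2 of 11 tested rose and 0 fell, beside 7.29%, 13.1% and 4.89% of all genes higher, with median log2 differences of 0.96, 1.07 and 0.68 beside medians over all genes of -0.01, 0.02 and 0.02. The summed CPM of the 14 genes did not double. Its median was 905, 961 and 856 in no DEN liver and 891, 958 and 912 in NT liver at 8, 14 and 20 weeks. Fbln1 encodes the matrix protein fibulin 1 and had log2 differences of 1.53, 2.82 and 2.07 at 8, 14 and 20 weeks, each past the threshold. Col4a3, a type IV collagen chain, had 1.17 (adjusted p = 0.0466), 2.35 and 2.28, of which the last 2 passed. In no DEN liver at 20 weeks it held only 0.0978 to 0.607 CPM, near the floor. It passed the filter on low counts there through NT liver, at 0.801 to 1.86 CPM, so that call is no support for the list. Col4a1, the common type IV collagen chain, rose from 40.6 ± 2.7 CPM in no DEN liver to 121.0 ± 12.2 CPM in 14-week NT liver (SD, n = 4 each). Its log2 differences were 1.02, 1.59 and 0.91, of which the last was under 2-fold, and its change from 14 to 20 weeks was -0.68 ± 0.13 (adjusted p = 0.0202). Col4a1 was named for its large difference at 14 weeks, so this change reuses the values that chose it and leans toward a fall. In nodules 9 of 12 rose and 2 fell at 14 weeks, and 10 of 13 rose and 1 fell at 20 weeks, beside 23.9% and 23.6% of all genes higher and 15.2% lower at each time. Smoc1 fell at both times, by 1.24 and 0.99 on the log2 scale.

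Of 14 laminin receptors, 12 had a row. In NT liver 2 of 11, 3 of 12 and 1 of 11 rose at the 3 times and 0 fell, beside 7.29%, 13.1% and 4.89% of all genes higher, with medians of 0.32, 0.15 and 0.32. With 1 to 3 genes called these counts are no result about the list. Bcam encodes the Lutheran glycoprotein, a receptor that binds the alpha 5 chain, and had log2 differences of 1.12 (adjusted p = 0.000209), 1.29 (adjusted p = 6.48e-05) and 0.80 (adjusted p = 0.00341) at 8, 14 and 20 weeks. Mcam, an endothelial and pericyte adhesion molecule that binds the alpha 4 chain, had 1.74, 2.19 and 1.58, each past the threshold. Itgb4, the integrin subunit of hemidesmosomes, had 0.54 (adjusted p = 0.0927), 1.16 (adjusted p = 0.001) and 0.63 (adjusted p = 0.0767). In nodules 5 of 12 rose and 2 fell at 14 weeks, and 6 rose and 2 fell at 20 weeks, beside 23.9% and 23.6% of all genes higher and 15.2% lower, with Itga7 lower at both times by 1.04 and 0.75 on the log2 scale. Neither the step of Bcam nor that of Mcam or Itgb4 from 14 to 20 weeks passed the test.

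Genes that link these receptors to the cytoskeleton, 13 of 15 with a row, gave 2, 3 and 0 of 12 higher in NT liver at 8, 14 and 20 weeks and 0 lower, with medians of -0.16, 0.06 and -0.12. Sgcb and Sgce encode sarcoglycans of the dystroglycan complex. Sgcb had log2 differences of 1.78, 1.88 and 0.46 (adjusted p = 0.0619 for the last) and Sgce had 1.08, 1.56 and 0.24 (adjusted p = 0.55 for the last). Lims1, an adaptor of integrin-linked kinase, had -0.16 (adjusted p = 0.64), 1.34 (adjusted p = 0.000492) and 0.80 (adjusted p = 0.0908). In nodules 2 of 12 rose and 0 fell at 14 weeks, and 3 rose and 1 fell at 20 weeks, shares near or below the 23.9% and 23.6% of all genes higher. Of 14 enzymes with a row that cleave laminin or add the sugars through which dystroglycan holds it, 1, 2 and 1 of 13 rose in NT liver and 0 fell, and in nodules 3 rose and 4 fell at 14 weeks and 4 rose and 4 fell at 20 weeks. Beside 7.29%, 13.1% and 4.89% of all genes higher in NT liver and 15.2% lower in nodules, the counts of these last 2 lists are no result about them. The gelatinase Mmp2 had 1.65, 1.54 and 0.73 (adjusted p = 0.00537, under 2-fold) and the membrane protease St14 had 0.96 (adjusted p = 0.00656, under 2-fold), 1.79 and 1.86.

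**Figure D4:**
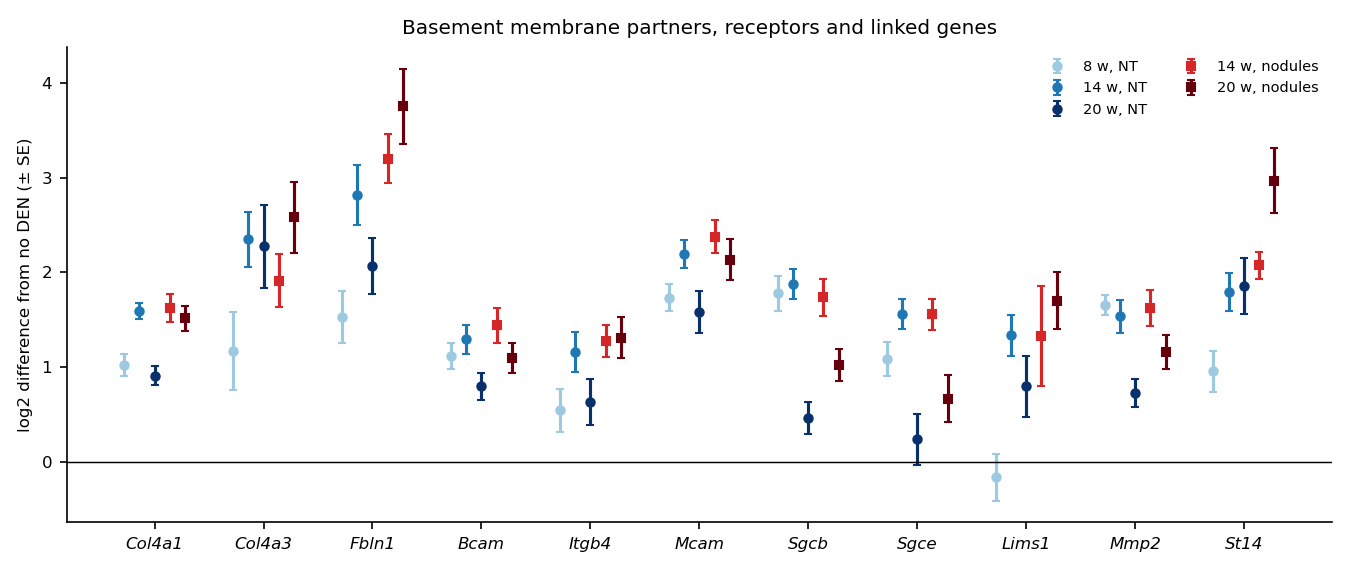
Log2 difference from no DEN liver of the same age, with its SE, for genes named above that act with laminins, in NT liver (circles) and nodules (squares). For Sgcb and Sgce the NT values stand at 1.88 and 1.56 at 14 weeks and at 0.46 and 0.24 at 20 weeks, while St14 stood at 1.79 and 1.86.

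Markers of other cell types in liver also differed between some of these groups, and their part in the laminin values was not tested. The summed CPM of 12 endothelial markers ran from 150 to 324 over the untreated rats of the 3 ages and from 317 to 399 over NT liver, with 1, 7 and 2 of 12 called higher at 8, 14 and 20 weeks and 9 and 8 in nodules, beside 7.29%, 13.1% and 4.89% of all genes in NT liver and 23.9% and 23.6% in nodules. The 14 markers of stellate cells and myofibroblasts summed to 213 to 309 CPM in untreated rats, 407 to 549 in NT liver at 8 and 14 weeks and 285 to 310 in NT liver at 20 weeks, with 6 of 12, 6 of 12 and 0 of 11 called higher, and Col1a2 was listed at 0 in every group. In nodules 7 of 12 were called higher at each time. The 11 cholangiocyte and progenitor markers summed to 47.1 to 60.8 CPM in untreated rats and to 60.1 to 71.0, 71.9 to 124 and 66.2 to 94.7 CPM in NT liver at 8, 14 and 20 weeks, and to 105 to 219 CPM in nodules, with 2, 9 and 6 of 10 called higher in NT liver and 9 of 10 at each time in nodules, where 1 fell at 20 weeks. Hepatocyte markers, which define the tissue, were abundant in every group at 110000 to 271000 summed CPM. In NT liver 0, 1 and 0 of 8 fell at the 3 times. Of all genes tested in NT liver 855, 1676 and 565 were called, and 788, 1445 and 529 of these were higher, so few were lower. In the nodules 6 and 7 of 8 markers fell and 1 rose at 14 and 20 weeks, beside 15.2% of all genes lower at each time. Of 10 leukocyte markers 2, 0 and 0 were called higher in NT liver and 4 and 3 in nodules. Of the few mesothelial markers 1 was tested, and it was called higher at 20 weeks in NT liver and at both times in nodules, while of the Schwann cell and smooth muscle markers 0 were called in NT liver and 1 in nodules at 20 weeks.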

How the data were processed

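The values are gene counts per library, deposited by the authors as 1 file for each of 40 libraries. Per the labels and the study's methods, the authors prepared stranded mRNA libraries, sequenced 75-base read pairs, aligned them to rn6 with STAR 2.7.1a and counted pairs wholly inside exons of a gene, on the reverse strand and at a unique place, with HTSeq. No normalization had been applied. Summary lines that name no gene, 32.8% to 45.4% of the pairs of a library, were left out. Libraries of a group differed by at least 12.9 in chi-square per degree of freedom, so none was a copy of another in its group. Libraries of different groups were not compared in this way. Pairs carry no molecular identifiers, and errors come from the spread between rats.

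Both nodules of a rat were summed as counts. For each comparison the groups concerned were filtered with filterByExpr, scaled by TMM and compared with the quasi-likelihood test of edgeR 4.0.16 (robust, 2-sided) under R 4.3.3, and p-values were adjusted by Benjamini-Hochberg over all genes tested. NT liver was called at an absolute log2 difference of 1 or more with an adjusted p no higher than 0.01, nodules at 0.5 and 0.05, and changes of an effect over time at 0.05. The script was tested on simulated data. Rats give the pairing of NT liver and nodules, since the labels carry the same rat number, and deviations of same-numbered samples correlated at 0.367 to 0.538 over genes. Lama5 was left out of every test. A test of its nodule to NT difference had been planned, but its selection used the levels of those groups. The rat was left out as a block at first and added as an alternative. Other alternatives were DESeq2 1.42.0, RLE scaling, no filter, all 8 groups in 1 fit, leaving out each rat or the F rats, and single nodules. CPM used a TMM scaling over all libraries. Likeness used a prior count of 2 and a mean of at least 1 CPM.

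Genes named were all members, other laminin chains, of each pathway list up to 3 called genes with the largest difference in NT liver at 14 weeks, and the most alike genes. Those named among fallen nodule genes and Lamb2 at 14 weeks were added after their values were seen. The members, lists and rules were chosen with earlier results of these data known. Promoter sequences are those of RefSeq on GRCr8, and motifs were searched on both strands of 300 bases. Some genes are not reported here.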

Additional observations from a re-analysis of the deposited data

Results flagged for a closer look

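Over 40 sets of 4 values, 5 chains in each of the same 8 groups of 4 rats, 2 held a rat farther from its group than Dixon's 95% limit allows. Chance alone gives about 1 in 20, which is the share seen here. Lamc1 in no DEN liver at 20 weeks was 33.9 CPM in rat H13, below the other 3 rats. Lamc1 in NT liver at 20 weeks was 43.3 CPM in rat H26, above the other 3 rats, and this is the largest library of the series. The difference between NT and no DEN liver changed from 8 to 14 weeks by 0.484 on the log2 scale for Lamc1, with an adjusted p of 0.0241 in the edgeR test of the change itself. This call was lost without any 1 of 5 rats, without the F rats (adjusted p = 0.0595) and with all 8 groups in 1 fit (adjusted p = 0.167).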

How the results depend on the processing

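Over the alternatives, 586 of 635 values for single chains counted as unchanged, and 140 of 161 counts of called chains stayed within 1.5 times. For the tested chains unchanged meant the same direction and side of the threshold. For Lama5, which was not tested, it meant the same direction and a shift of less than 1 SD between rats. Of the rest, 27 changed sign, 12 crossed the threshold upward, 8 crossed it downward and 2 values of Lama5 moved by over 1 SD. By the nodule thresholds 2 of 4 chains were called in NT liver at 8, 14 and 20 weeks, where 2344, 3592 and 1957 genes passed in place of 855, 1676 and 565, since fold and p limits were looser. For nodules against NT liver at 20 weeks 1 of 4 chains was called with DESeq2, with all 8 groups in 1 fit (1096 genes) and with the replicate block, where the pairing by rat raised the calls from 0 to 1693 genes, and with nodule 1 alone 218 genes passed. The replicate block changed no other call of a member. For nodules against no DEN at 14 weeks 4 of 4 chains were called without the F rats (4686 genes in place of 4425). The change from 8 to 14 weeks had 0 of 4 calls with all 8 groups in 1 fit (151 genes in place of 1005, and 1529 with DESeq2) and without the F rats, and that from 14 to 20 weeks had 1 of 4 with DESeq2 (391 genes in place of 83, and 41 with all groups and 182 without the F rats). For the change in nodules DESeq2 called 29 genes, all groups in 1 fit 16 and nodule 1 alone 5, in place of 10. Leaving out each rat in turn gave 0 to 1 called chains in NT liver at 8 weeks, 2 to 4 in nodules against no DEN at 14 weeks, 0 to 1 in nodules against NT liver at 20 weeks (1 without H25, with 445 genes), 0 to 2 for the change from 8 to 14 weeks (2 without F06, with 1760 genes) and 0 to 1 for that from 14 to 20 weeks, and genes called for the last ran from 31 without H22 to 408 without H26.

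Values near 0 changed sign. Without the F rats the log2 difference became 0.11 for Lamc1 in NT liver at 8 weeks, 0.088 for Lamb3 in NT liver at 20 weeks, -0.032, -0.097 and 0.034 for Lama5, Lamb3 and Lamc1 in nodules against NT liver at 14 weeks, and 0.032 for the change of Lama4 from 14 to 20 weeks. With 1 rat left out these ran from -0.094 to 0.051, from -0.16 to 0.11, from -0.032 to 0.26 (Lama5), from -0.097 to 0.32 (Lamb3), from -0.19 to 0.034 (Lamc1) and from -0.17 to 0.17, and the change of Lamb2 from 14 to 20 weeks from -0.096 to 0.032. Where not stated, the cause of a moved call was not tested. Lama1 and Lamc3 were near the floor in the largest library too, NT liver of H26 at 20 weeks, with 2 and 24 counts.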
